A study of Mus musculus with 2 samples.

Results

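The dystrophin and sarcoglycan complex was described by 8 genes, Dmd, Utrn, Dag1, Sgca, Sgcb, Sgcd, Dtna and Sntb1, picked by name out of 55401 genes counted in mouse heart. All 8 were found by symbol and all reached 1 CPM (counts per 1000000 scaled counts) in at least 1 library. The hearts came from C57BL/6 mice, and both groups had transverse aortic constriction (TAC), in which a tied band narrows the aortic arch so that the left ventricle pumps against a higher pressure. One group is labelled TAC and the other TAC with Dioscin, a plant steroidal saponin given for 4 weeks after the surgery. The protocol text of both samples names dioscin, so the TAC group is taken as untreated from its treatment label alone. Each group was 1 library, and neither the sex and age of the mice nor the number of hearts in a library was given in the labels. A heart without surgery was not analysed here, so the values compare dioscin with no dioscin under load and not load with no load.

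The complex spans the membrane of the muscle cell. Dystroglycan, made as a precursor by Dag1 and cut into an outer and an inner part, binds laminin, agrin and perlecan in the matrix and dystrophin inside the cell, and dystrophin ties it to actin. The sarcoglycans brace dystroglycan within the membrane, and syntrophins and dystrobrevins form a scaffold for signalling proteins on dystrophin. Utrophin is a relative of dystrophin that can take its place at the membrane. Loss of dystrophin or of alpha-, beta- or delta-sarcoglycan makes the membrane fragile and can lead to muscular dystrophy and cardiomyopathy.

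The 2 libraries held 16782741 (TAC) and 17612259 (dioscin) counts in genes. With 1 library in each group, differences between mice were not measured, and every interval given here is an exact 95% interval of the counts alone. The intervals cover counting error only and treat each count as an independent read. Reads copied by PCR were not told apart, and any such copies would make the intervals too narrow. Markers of other cell types differed between the libraries. Markers of atrial muscle summed to 592 CPM in TAC and 17319 CPM with dioscin, with 5 of 6 at least 2-fold higher. Nppa alone was at 588 and 12663 CPM and made up most of both sums. In TAC, Sln, Myl7 and Myl4 were at 0.0579, 0.753 and 3.19 CPM, and Mybphl and Bmp10 at 0. With dioscin, Sln, Myl7 and Myl4 were at 726, 1759 and 1970 CPM. Mesothelial markers summed to 18.5 and 153 CPM (7 of 8 higher, Krt8 and Krt18 at 0 in TAC). Most of their TAC sum was Wt1, at 16.0 CPM in TAC and 15.4 with dioscin. Adipocyte markers summed to 0.811 and 31.1 CPM (5 of 6 higher, Plin1, Cidec and Retn at 0 in TAC), and fibroblast markers to 770.6 and 1693 CPM (3 of 8 higher). The 12 markers listed for ventricular muscle were all present, at 57071 and 65321 CPM summed. Of these, 10 had a ratio above 1, while Myl2 (0.785) and Ttn (0.654) were lower. The part of atrial muscle in this sum was not tested. Scaling by ventricular muscle genes, used below, rests on the summed counts of these 12. Smooth muscle and pericyte markers summed to 1523 and 1484 CPM (1 of 8 higher, 1 lower). Endothelial markers summed to 1712 and 1744 CPM (2 of 8 higher, 1 lower), with ratios from 3.27 for Vwf to 0.364 for Egfl7. Schwann cell markers summed to 39.4 and 35.3 CPM (1 of 6 higher, 0 lower). Skeletal muscle markers summed to 9.15 and 10.6 CPM (1 of 10 higher, 1 lower). The fast myosin genes Myh1 and Myh4 were at 0 in both libraries. Of all genes at or above 1 CPM, 10.5% were at least 2-fold higher and 8.77% lower. The part of these cell types in the values below was not tested, and in bulk heart fewer cells of a type and less RNA per cell cannot be told apart.

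Most genes of the complex had moderately more reads with dioscin, led by dystroglycan and dystrophin, while the syntrophin and dystrobrevin members had fewer. The median log2 ratio of dioscin over TAC was 0.29 for the 8 members and 0.01 for the 15697 genes at or above 1 CPM. A ratio above 1 was found for 6 of 8 members and for 50.6% of all those genes. The counting interval lay above 1 for 5 members (35.1% of all genes) and below 1 for 2 (32.1%), and it held 1 for Sgcd. With libraries scaled by ventricular muscle genes, the intervals of Utrn, Sgca and Sgcb held 1 as well, leaving 2 members above 1 (25.7% of all genes) and 2 below (43.1%). None of the 8 was at least 2-fold higher with an interval that excluded 1, against 10.5% of all genes, and 1 was at least 2-fold lower, against 8.77%. At 1.5-fold the counts were 2 higher (20.3% of all genes) and 1 lower (17.9%). In 8 genes those 2-fold shares come to less than 1 gene each, so the counts are near the background.

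**Figure D1:**
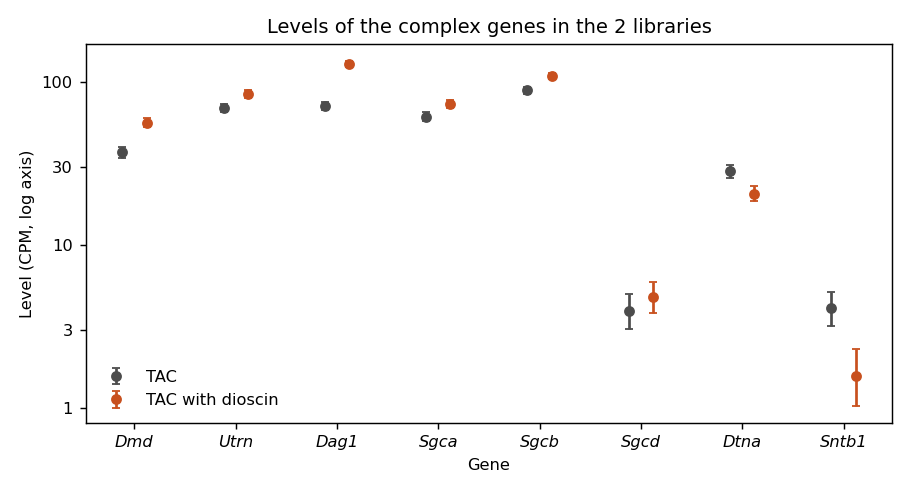
Levels of the 8 genes in CPM on a log axis, with TAC in grey, TAC with dioscin in orange and bars for exact 95% Poisson intervals of the counts. Dag1 and Dmd stand higher and Sntb1 and Dtna lower in the dioscin library, with intervals that do not overlap, and Sgcd overlaps.

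Dmd encodes dystrophin, the rod that links actin to dystroglycan (chromosome X, 82948870 to 85206141, plus strand, GRCm38). It had 639 counts in TAC and 962 with dioscin, or 37.0 and 56.2 CPM. The dioscin library was the higher, by 1.52-fold (1.37 to 1.68), and 79.2% of all genes had a lower ratio. This is just past 1.5-fold, and it was 1.43-fold with libraries scaled by total counts and 1.33-fold with libraries scaled by ventricular muscle genes. The count is the sum over all dystrophin transcripts. Full-length muscle dystrophin and the short forms from internal starts cannot be separated in it.

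RefSeq places a Dmd start at the head of the gene and another far inside it, and the 250 bases before each are shown because the count sums transcripts of every start. Capitals mark matches on either strand to the E-box CANNTG, the M-CAT motif CATTCC, the GC box GGGCGG, the TATA motif TATAAA, the CArG box and the MEF2 site. The windows are chrX:82948620-82948869 and chrX:85048045-85048294 on GRCm38.p6, plus strand, and neither touches an annotated exon.
Dmd, first start: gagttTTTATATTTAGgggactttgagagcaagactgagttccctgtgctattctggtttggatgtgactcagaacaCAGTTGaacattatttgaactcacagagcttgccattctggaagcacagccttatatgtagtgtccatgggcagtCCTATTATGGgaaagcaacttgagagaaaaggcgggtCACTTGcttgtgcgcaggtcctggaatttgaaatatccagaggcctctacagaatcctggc
Dmd, internal start: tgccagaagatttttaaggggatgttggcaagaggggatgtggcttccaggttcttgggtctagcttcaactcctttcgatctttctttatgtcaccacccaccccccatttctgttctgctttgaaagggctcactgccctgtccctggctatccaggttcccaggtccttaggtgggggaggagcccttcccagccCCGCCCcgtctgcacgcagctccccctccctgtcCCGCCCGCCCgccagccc
The window of the first start held 1 CArG box, 98 to 89 bases before the start, and 1 MEF2 site, 244 to 235 bases before it. The MEF2 site overlaps a TATA motif, and 2 E-boxes lay elsewhere in the window. CArG boxes and MEF2 sites are bound by transcription factors of muscle and other cells, and 1.47% and 2.92% of 32851 RefSeq windows of this length held them. An E-box was found in 66.2% of windows and a TATA motif in 12.4%. The internal window held neither of the muscle motifs but 3 GC boxes, which 32.7% of windows held. M-CAT, present in 12.6% of windows, was in neither. A match describes the letters and says nothing of binding.

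Utrn encodes utrophin (chromosome 10, 12382188 to 12869365, minus strand). It had 1189 counts in TAC and 1440 with dioscin, or 68.9 and 84.1 CPM, a ratio of 1.22 (1.13 to 1.32). Set against dystrophin in the same library, where scaling cancels, Utrn had 1.86 counts per Dmd count in TAC and 1.497 with dioscin. That share was 0.805 times as large in the dioscin library (0.708 to 0.914).

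Dag1, the dystroglycan gene (chromosome 9, 108204634 to 108263958, minus strand), differed most among the members that were higher. Its 1221 counts in TAC and 2194 with dioscin correspond to 70.7 and 128 CPM. The ratio was 1.81 (1.69 to 1.95), and 86.5% of all genes had a lower one. Across the other scalings and the correction for length and GC content it lay between 1.58 and 1.95, short of 2-fold in each. Relative to Dmd it was 1.19 times higher with dioscin (1.05 to 1.35). The 250 bases before its outermost RefSeq start, chr9:108263959-108264208 on GRCm38.p6, minus strand, are shown for contrast with the muscle start of Dmd, with capitals as above.
Dag1: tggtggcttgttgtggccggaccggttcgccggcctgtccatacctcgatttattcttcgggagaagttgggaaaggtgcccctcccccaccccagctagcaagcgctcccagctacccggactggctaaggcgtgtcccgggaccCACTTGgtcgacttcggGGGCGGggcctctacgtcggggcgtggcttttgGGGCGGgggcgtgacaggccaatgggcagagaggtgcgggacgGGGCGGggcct
This window held 3 GC boxes and 1 E-box, with the nearest GC box 11 to 6 bases before the start. It held no CArG box, MEF2 site, M-CAT or TATA motif, and its GC content was 67.6%, against 45.2% in the window of the first Dmd start and 60.0% in that of the internal start. RefSeq windows matched 6 of the 8 members by symbol.

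**Figure D2:**
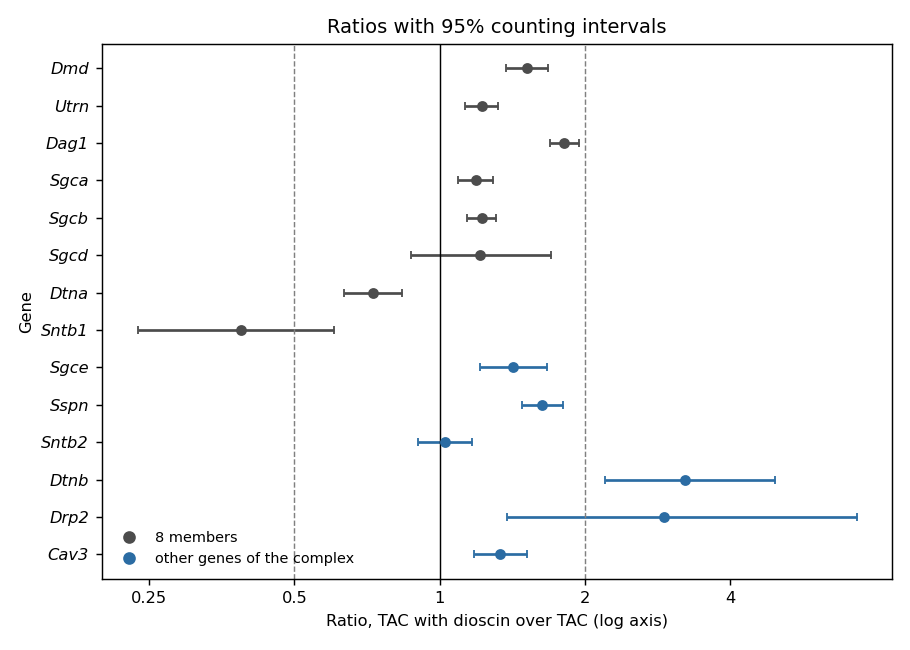
Ratio of TAC with dioscin over TAC on a log axis for the 8 members (grey) and 6 other genes of the complex at or above 1 CPM (blue), with bars for 95% counting intervals and dashed lines at 0.5 and 2. The 3 measured sarcoglycan members sit together near 1.2, while Dtnb lies at 3.23 and Sntb1 at 0.388.

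The sarcoglycan members had nearly the same ratio. Sgca, alpha-sarcoglycan (chromosome 11, 94962791 to 94976327), had 1058 and 1245 counts in TAC and dioscin, or 61.3 and 72.7 CPM, a ratio of 1.19 (1.09 to 1.29). Sgcb, beta-sarcoglycan (chromosome 5, 73632749 to 73647790), had 1535 and 1859 counts, or 88.9 and 108.6 CPM, a ratio of 1.22 (1.14 to 1.31). The dioscin library was slightly higher for both, and the number of Sgca counts per Sgcb count was 0.689 in TAC and 0.670 with dioscin, a ratio of 0.972 (0.873 to 1.08). Sgcd, delta-sarcoglycan (chromosome 11, 46896253 to 47988969), had 68 and 82 counts, or 3.94 and 4.79 CPM. Its ratio of 1.22 came with an interval from 0.871 to 1.70, so a difference between the libraries was not detectable at this depth.

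Other sarcoglycan genes were not in the set of 8. Sgce, epsilon-sarcoglycan of vessels and other tissues, had 270 and 380 counts, a ratio of 1.42 (1.21 to 1.67). Sgcz, zeta-sarcoglycan, had 1 and 0 counts. The pair of Sgca with Sgcb was chosen after the values were seen.

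Both scaffold members had fewer reads with dioscin. Dtna, alpha-dystrobrevin, which binds dystrophin and recruits syntrophins (chromosome 18, 23415135 to 23659715, plus strand), had 490 counts in TAC and 354 with dioscin, or 28.4 and 20.7 CPM. Its ratio was 0.729 (0.634 to 0.837), and 24.9% of all genes had a lower one. An antisense gene covers 0.532% of its exonic length, and it was the only 1 of the 8 to share exonic sequence with another annotated gene. Sntb1, beta-1-syntrophin, an adaptor for channels and kinases (chromosome 15, 55636388 to 55906949, minus strand), had 71 and 27 counts, or 4.11 and 1.58 CPM. It was 2.58-fold lower (1.65 to 4.22), the sole member past 2-fold, and 4.9% of all genes had a lower ratio. The interval reaches inside 2-fold because the counts are few, and neither library reached 5 CPM. Per Dmd count, Dtna was 2.08-fold lower (1.75 to 2.48) and Sntb1 3.96-fold lower (2.48 to 6.49).

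Their relatives Sntb2 and Dtnb had ratios above 1, though that of Sntb2 was close to it. Sntb2, beta-2-syntrophin, had 465 and 473 counts, a ratio of 1.03 (0.901 to 1.17) that was under 1 when libraries were scaled by total counts or by ventricular muscle genes. The number of Sntb1 counts per Sntb2 count was 0.153 in TAC and 0.0571 with dioscin, 2.68-fold lower (1.66 to 4.41). Dtnb, beta-dystrobrevin, had 34 and 110 counts, 3.23-fold higher (2.20 to 4.95), and the number of Dtna counts per Dtnb count went from 14.4 to 3.22, 4.48-fold lower (2.94 to 6.95). The pairs with Sntb2 and Dtnb were also chosen after the values were seen.

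Compared per kilobase of merged exons, Sgca was the most abundant member in both libraries, at 35.3 CPM per kb in TAC and 41.9 with dioscin. Sgcb followed at 21.9 and 26.8, Dag1 at 11.1 and 20.2, and Utrn at 4.03 and 4.92 CPM per kb. The intervals of these neighbours did not overlap. In TAC, Dtna (1.68) and Dmd (1.56) overlapped, and so did Sntb1 (0.772) and Sgcd (0.477), whose intervals shared only their ends. With dioscin the order became Dmd (2.36), Dtna (1.22), Sgcd (0.580) and Sntb1 (0.296), and no neighbours overlapped. Lengths bear on this order, since merged exons of Dmd come to 23801 bases and its longest coding transcript to 14910, and for Sgcd the figures are 8257 and 2450. Per kilobase of the longest coding transcript, a length chosen after the values were seen, Sgcd (1.61) stood above Sntb1 (0.836) in TAC too, and Dmd (3.77) and Dtna (3.29) overlapped with dioscin.

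**Figure D3:**
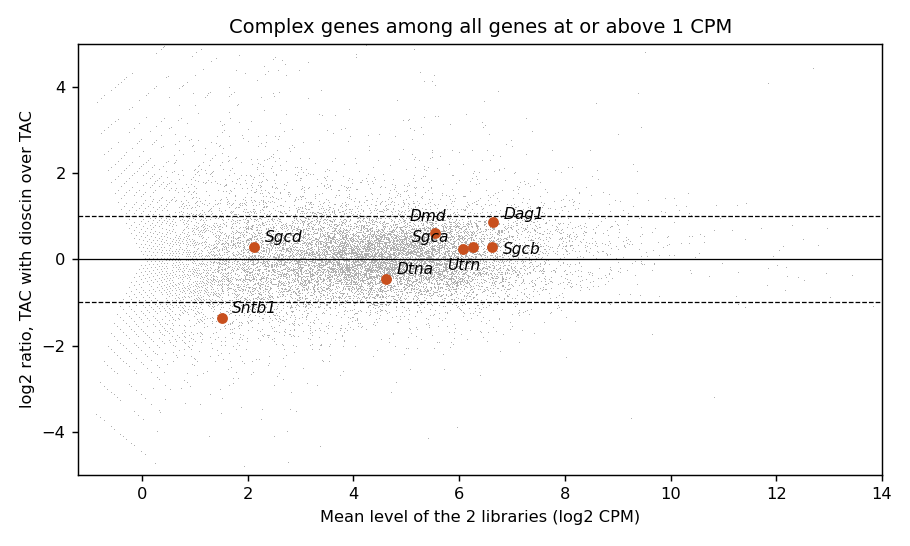
The 8 genes (orange) among 15697 genes at or above 1 CPM (grey), with the mean level of the libraries on the x axis in log2 CPM and the log2 ratio on the y axis, dashed lines at 2-fold. Sntb1 lies below the lower line at a low level, the others lie between the lines, and 84 genes fall outside the axis of 5 in either direction.

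Of the 12 other genes of the complex, 8 reached 1 CPM, and their median log2 ratio was 0.71. At least 2-fold higher were 3 of the 8, Dtnb and Drp2 included, against 10.5% of all genes. None was lower, against 8.77%. Drp2, a dystrophin-related protein of nerve sheath cells, had 9 and 27 counts, 2.92-fold higher (1.38 to 7.32), beside Schwann cell markers that went from 39.4 to 35.3 CPM summed. Sspn, sarcospan, the membrane protein bound to the sarcoglycans, had 683 and 1106 counts, a ratio of 1.63 (1.48 to 1.80). Cav3, muscle caveolin, which binds dystroglycan, had 422 and 559 counts, a ratio of 1.34 (1.18 to 1.52), and the highest level per kilobase of this list in TAC at 21.1 CPM per kb. Nos1, the neuronal nitric oxide synthase that syntrophin anchors, had 6 and 2 counts and stayed under 1 CPM.

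The enzymes that build the laminin-binding sugar of dystroglycan differed little. Of 19 listed, 17 reached 1 CPM, and the median log2 ratio was -0.08. None was 2-fold higher (10.5% of all genes) or lower (8.77%). Gmppa, which helps control the supply of the mannose donor, was the most abundant per kilobase, with 792 and 694 counts and a ratio of 0.884 (0.797 to 0.980). The highest ratio belonged to Rxylt1, a xylosyltransferase of the chain, with 269 and 480 counts and a ratio of 1.80 (1.55 to 2.098), and was picked after its values were seen. B4gat1 had 0 counts in both libraries, and exons of another gene on the same strand cover 85.3% of its exonic length.

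The matrix proteins on the outer side went both ways, with more ratios under 1 than above it. Of 13 listed, 12 reached 1 CPM, and 9 of the 12 had a ratio under 1, with a median log2 ratio of -0.59. At least 2-fold lower was 1 of the 12, which is near the 8.77% of all genes, and none was higher, against 10.5%. At 1.5-fold, 6 were lower (17.9% of all genes) and 1 higher (20.3%). Col6a3, a chain of collagen VI, had 1032 and 243 counts and was 4.203-fold lower (3.66 to 4.86). Hspg2, which encodes perlecan, had 13206 and 6602 counts and was 1.98-fold lower (1.93 to 2.04). It passed 2-fold with total count scaling, with DESeq2 size factors and with ventricular muscle scaling. With the length and GC correction it did not, and the median log2 ratio of the list was -0.40. Agrn, agrin, had 5666 and 2994 counts, 1.88-fold lower (1.79 to 1.96). With ventricular muscle scaling 4 of the 12 passed 2-fold lower, Lama5 and Agrn among them. So did 2047 of the 15722 genes at or above 1 CPM under that scaling. On the other side of 1, Nid1, nidogen, which links laminin to collagen in basement membranes, had 1652 and 2691 counts, a ratio of 1.64 (1.55 to 1.75). Lamc1, a laminin gamma chain, had 1462 and 1925 counts, a ratio of 1.33 (1.24 to 1.42). Hspg2, Agrn, Nid1, Lamc1 and the following pairs were picked after their values were seen. Dag1 counts per Agrn count went from 0.216 to 0.733, 3.40 times higher (3.13 to 3.70). Per Hspg2 count they went from 0.0925 to 0.332, 3.59 times higher (3.33 to 3.88), and per Lama2 count from 1.27 to 2.21, 1.74 times higher (1.55 to 1.95). Lama2, the laminin chain of the muscle basement membrane, had 961 and 994 counts, a ratio of 1.04 (0.954 to 1.14), which was under 1 with total count or ventricular muscle scaling. The most abundant per kilobase was Lamb2, a laminin beta chain, with 8764 and 6907 counts and a ratio of 0.795 (0.770 to 0.821).

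**Figure D4:**
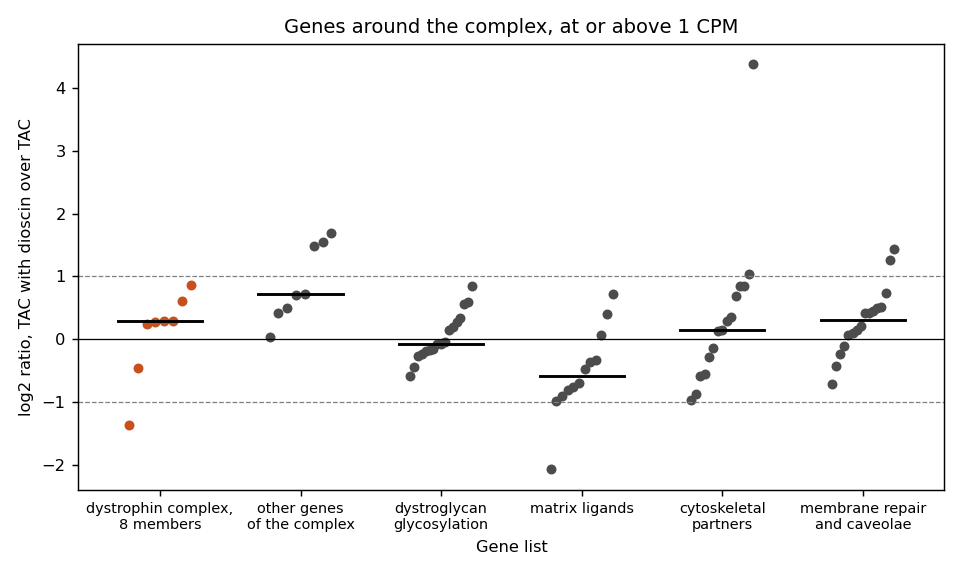
Log2 ratios of the genes at or above 1 CPM in 6 lists, 1 point per gene with black bars at the list medians and dashed lines at 2-fold. The medians are 0.29 for the 8 members (orange), 0.71 for the other complex genes and -0.59 for the matrix ligands, and the point near 4.4 is Krt19.

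Inside the cell, the partners that tie the complex to filaments went both ways. All 15 reached 1 CPM, and the median log2 ratio was 0.14. At least 2-fold higher were 2, which is near the 10.5% of all genes, and none was lower, against 8.77%. At 1.5-fold, 5 were higher (20.3% of all genes) and 3 lower (17.9%). Among the higher was Des, with 13265 and 23702 counts and a ratio of 1.803 (1.765 to 1.842), picked after its values were seen. Krt19, a keratin, had 12 and 257 counts, 20.8-fold higher (12.2 to 42.4), and is itself 1 of the 8 mesothelial markers. The other 7 summed to 17.8 CPM in TAC and 138 CPM with dioscin, and 6 of them were at least 2-fold higher. Most of the TAC sum was Wt1, at 16.0 CPM in TAC and 15.4 with dioscin. The part of mesothelium in the value of Krt19 was not tested. Ank3, an ankyrin that helps place dystrophin at the membrane, had 517 and 1054 counts, 2.06-fold higher (1.85 to 2.29), and was under 2-fold with total count or ventricular muscle scaling. Actb, cytoplasmic actin and the most abundant of the list, had 19707 and 10632 counts, a ratio of 0.544 (0.532 to 0.557), past 2-fold lower with ventricular muscle scaling. Itga7, the laminin-binding integrin chain that forms a second link to the matrix, had 2119 and 1396 counts, 1.504-fold lower (1.41 to 1.61).

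The 16 genes of membrane repair and caveolae were all at or above 1 CPM, with a median log2 ratio of 0.31. At least 2-fold higher were 2 of them, near the 10.5% of all genes, and none was lower, against 8.77%. Anxa1, a calcium-binding protein that joins membranes, had 367 and 990 counts, 2.72-fold higher (2.41 to 3.08). Myof, myoferlin, which acts in membrane fusion and is made in many non-muscle cells, had 127 and 301 counts, 2.39-fold higher (1.94 to 2.97). Its relative in muscle, Dysf, dysferlin, was 1.63-fold lower (1.53 to 1.74), with 2606 and 1583 counts, and was picked after its values were seen. Cav1, the caveolin of endothelium and fat, was the most abundant per kilobase, with 6787 and 8952 counts and a ratio of 1.33 (1.29 to 1.37).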

How the data were processed

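RNA was extracted with Trizol and libraries were made with the Illumina TruSeq RNA kit, per the labels' protocols. The authors deposited raw read counts per gene. The tools were HISAT2 2.1.0 and HTSeq on mm10, per the submitters' processing notes. The strand setting and annotation release are not given in the sources used here. HTSeq lines for reads given to no gene were left out: 73.8% of all that HTSeq tallied for TAC and 71.5% for dioscin. Symbols, coordinates and exon lengths came from GENCODE M21 on GRCm38, where 55141 of 55401 identifiers matched without version. Dmd carried another version number in the files than in M21.

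Counts were scaled with TMM in edgeR 4.0.16 (R 4.3.3) and given as CPM. Ratios used a pseudocount of 0.5 and exact Clopper-Pearson intervals. A gene counted as higher or lower when it reached 1 CPM in a library, differed at least 2-fold (or 1.5-fold, where stated) and had an interval that excluded 1. Ratios of 2 genes within a library have exact conditional intervals (scipy 1.17.1). The script was tested on simulated data. Alternatives were total counts, DESeq2 1.42.0 size factors, other filters, pseudocounts and folds, and a loess correction for length and GC content.

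Beyond the members, each pathway list had its genes past 2-fold named, up to 6, with its most abundant gene per kilobase and a few genes in any case, Sgce, Sspn, Nos1, Cav3, Lama2 and Itga7 among them. Some genes that the rule names are not reported here, while list counts and medians cover the whole lists. Cell type lists are given as sums, with a few of their genes named. The members and lists were chosen with earlier results of these data known. With 2 libraries, genes most like a member in pattern could not be sought.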

Additional observations from a re-analysis of the deposited data

How the results depend on the processing

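No member changed direction under the other scalings or the length and GC correction. Scaling by ventricular muscle genes moved the median of all genes by -0.20 on the log2 scale and that of the 8 members to 0.0902, the same shift for each gene. It also turned the split of genes past 2-fold from 1655 higher and 1377 lower to 1196 and 2047. No member was 2-fold higher under any scaling, and Sntb1 was lower under each. With a 5 CPM filter the count of lower members was 0, since Sntb1 is below it, and 5.84% of all genes were lower. At 1.5-fold the count of higher members was 2. Without a filter, 3.65% of genes were higher and 3.28% lower. No paired analysis was possible because each group had 1 library. Depth limits Sgcd, Sntb1, Drp2 and Nos1, which had under 100 counts in each library.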
